A study of Homo sapiens with 6 samples.

Results

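The ATP-binding cassette (ABC) genes are a family of membrane pumps and related ATPases, and 45 of the 58735 genes in the count table belong to it here. They were taken as the protein-coding genes whose symbol is ABC, a subfamily letter from A to G and a number. The rule leaves out 3 relatives with other symbols, the peptide transporter genes TAP1 and TAP2 and the chloride channel gene CFTR, which are described at the end. RNA was sequenced from SY5Y, a human neuroblastoma cell line, in 6 libraries. DLX5, a homeodomain factor related to Drosophila Distal-less, was overexpressed in 3 libraries, and the other 3 carry the genotype label Control. The labels do not say how the overexpressing line was made, whether it is 1 clone, what the controls carried, or whether replicates came from separate cultures. The p-values therefore measure only how far these libraries spread, which may be technical.

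Each ABC protein carries nucleotide-binding domains that bind and split ATP, and most also carry membrane-spanning domains through which the substrate passes. ABCA and ABCG proteins mostly move lipids and sterols, ABCB proteins move drugs, lipids, peptides and mitochondrial substrates, and ABCC proteins export conjugated compounds or, as sulfonylurea receptors, regulate potassium channels. ABCD proteins serve peroxisomes and lysosomes, whereas ABCE and ABCF proteins have no membrane domain and act on the ribosome. In neuroblastoma the family is known for multidrug efflux, and ABCC1, ABCC3 and ABCC4 have been studied there as genes regulated by MYCN, the MYC family factor that is amplified in part of these tumours.

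The libraries held 14644077 to 16886026 counts each. DLX5 was at 1569 to 1677 CPM (counts scaled to library size with TMM factors) in the DLX5 libraries and at 12.3 to 13.8 CPM in the controls, so each library matched its label. All 9 neuroblastoma markers checked were detected and all 9 were lower with DLX5, with a summed level of 1654 to 1785 CPM against 4073 to 4504 CPM in the controls. TH was at or under 3 counts over the DLX5 libraries. Of 6 fibroblast markers 6 rose, with a sum of 6295 to 6529 CPM against 1205 to 1249 CPM, and they were present in every control. Endothelial markers summed to 5.81 to 6.98 CPM with DLX5 and 3.72 to 4.2 CPM in control, with 1 of 6 higher, and CDH5 was at or under 3 counts in both groups. Glial markers summed to 9.75 to 10.7 against 4.45 to 5.63 CPM, with 2 of 6 higher and 1 lower. Markers of macrophages and of hepatocytes or enterocytes, 6 each, stayed under 1.65 CPM in sum in every library, and CDX2 and FABP1 had no count. The part of these markers in the results below was not tested.

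Of the 45 ABC genes 33 had enough counts to be tested, and 25 of these changed with DLX5, 14 higher and 11 lower (edgeR quasi-likelihood test, adjusted p under 0.05 over all 17269 tested genes). That is 75.8% of the tested members, beside 58.6% of all tested genes. In single directions 29.8% of all tested genes were called higher and 28.8% lower. The tested members were somewhat better expressed than the rest, with a median of 31.6 CPM against 20.4 CPM over all tested genes. Most of the changes were small. A change of at least 2-fold was called for 5 members, or 15.2%, against 16.4% of all tested genes, and 18 of the 25 changed by less than 1.5-fold. The groups did not overlap for 24 of the 33 members, or 72.7%, against 62.5% of all tested genes. The median log2 fold change was 0.08 over the 33 members and 0.00 over all tested genes.

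**Figure D1:**
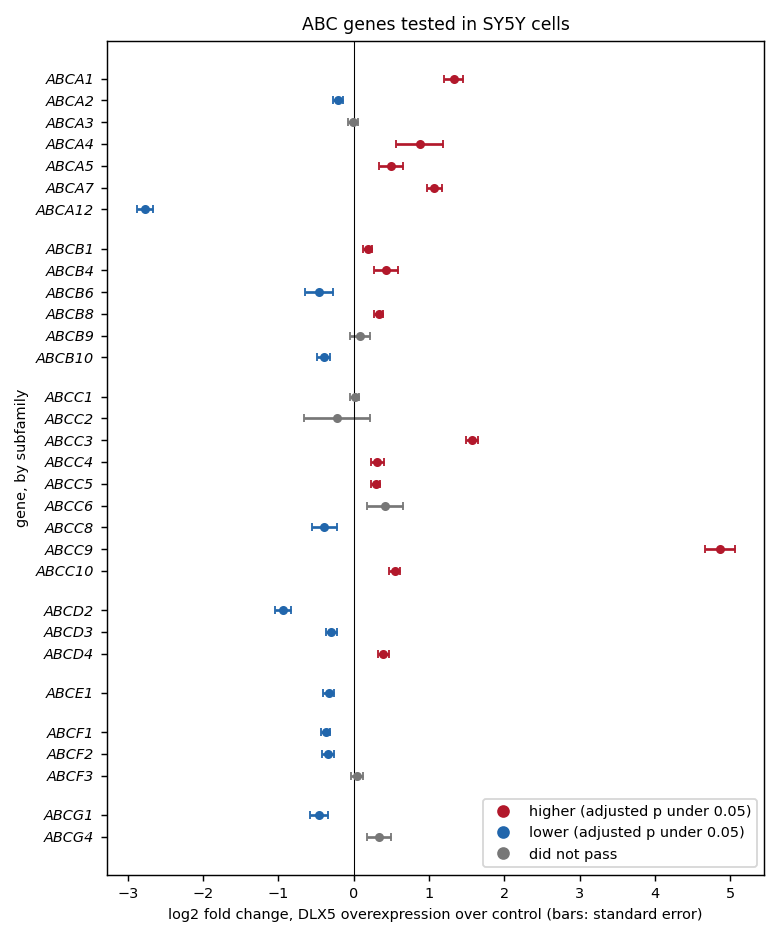
The log2 fold change (DLX5 overexpression over control, x axis) of 31 tested ABC genes, grouped by subfamily on the y axis, with bars for the standard error (n = 3 libraries a group). Red points are higher and blue points lower at an adjusted p under 0.05, and ABCC9 at 4.86 and ABCA12 at -2.77 lie farthest out.

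Summed over the family, the level per gene length did not move much. The sum of the 45 FPKM values (counts scaled to gene length and library size) was 223, 224 and 221 in the DLX5 libraries and 226, 224 and 233 in the controls. The FPKM sums of the groups did not overlap, by a narrow margin, whereas the summed CPM values did. The subfamilies shifted within that sum. ABCC genes made up 20.4% ± 0.746 of the summed FPKM with DLX5 and 15.5% ± 0.185 in control (SD, n = 3). ABCB genes held 23.5% ± 0.89 against 20.9% ± 0.442. In the other direction ABCF genes held 18.4% ± 0.692 against 22.4% ± 0.366, and ABCE1, the only gene of its subfamily, 5.34% ± 0.345 against 6.59% ± 0.621. The ABCD share was 12.1% ± 0.425 against 13% ± 0.284 and the ABCG share 1.18% ± 0.015 against 1.36% ± 0.0296. None of these 6 shares overlapped between the groups, whereas the ABCA share, 19.1% ± 0.635 against 20.3% ± 1.4, did.

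**Figure D2:**
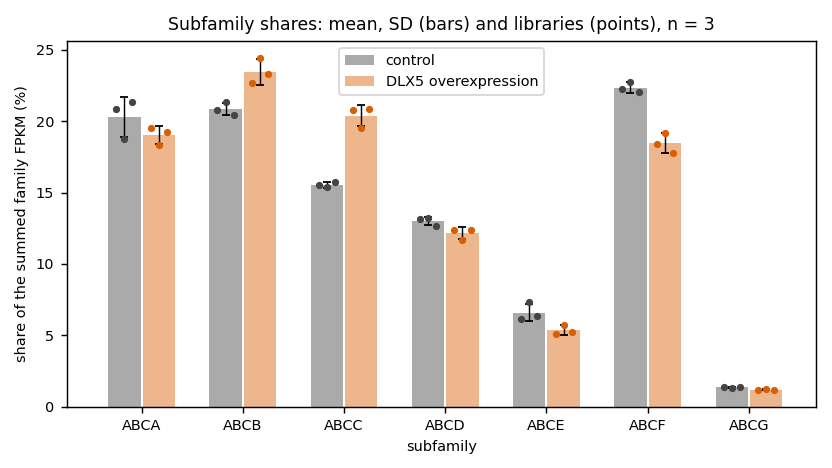
Share of the summed family FPKM (y axis, in percent) held by each subfamily (x axis) in control and DLX5 libraries; bars give the mean, error bars the SD over 3 libraries and points the libraries. The ABCC share rose from 15.5% to 20.4% and the ABCF share went from 22.4% to 18.4%.

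Genes of drug and conjugate efflux at the plasma membrane were tested in 8 cases of 12, and 5 rose while 0 fell, beside 29.8% higher and 28.8% lower over all tested genes. The largest rise among them was that of ABCC3 (ENSG00000108846, chromosome 17, 50634777 to 50692252, plus strand, GRCh38), which exports glucuronide conjugates and bile salts. ABCC3 stood at 67.8, 62.4 and 74.8 CPM in the DLX5 libraries and at 22.4, 23.5 and 23.1 CPM in the controls. The groups lay far apart, with a log2 fold change of 1.57 ± 0.08 (SE), or 2.97-fold (edgeR, adjusted p = 2.81e-15). ABCC10, a broad drug exporter, rose by 0.54 ± 0.08, from 31.9 ± 1.85 to 46.4 ± 2.58 CPM (SD, n = 3). ABCC4, which exports cyclic nucleotides and prostaglandins, rose by 0.31 ± 0.08, and ABCC5, an exporter of cyclic nucleotides and folates, by 0.29 ± 0.06 (log2 fold change ± SE, edgeR). For these 3 genes too every DLX5 library lay above every control. ABCC10 shares 79 exon bases with DLK2 on the opposite strand, which held 16.7% as many counts and fell by 0.63 on the log2 scale.

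The best known efflux pumps of multidrug resistance hardly moved. ABCB1, which encodes P-glycoprotein (ENSG00000085563, chromosome 7, 87503633 to 87713323, minus strand), was at 148, 163 and 154 CPM in the DLX5 libraries and at 136, 134 and 139 CPM in the controls. The DLX5 libraries lay just above the controls, with a log2 fold change of 0.19 ± 0.06 (edgeR, adjusted p = 0.00883). That call ended when library totals were used with no scaling factors (0.12, adjusted p = 0.0818). ABCC1, the multidrug resistance protein MRP1 that exports glutathione conjugates (ENSG00000103222, chromosome 16, 15949577 to 16143074, plus strand), held 153, 142 and 148 CPM with DLX5 and 147, 138 and 156 CPM in control. The ABCC1 values of the groups overlapped, and the log2 fold change was 0.01 ± 0.06 (edgeR, adjusted p = 0.9). Its share of the summed ABCC level was 42.6% ± 0.659 with DLX5 and 54.3% ± 1.82 in control. The FPKM of ABCC1 was 8.11 ± 0.583 times that of ABCC3 in control and 2.76 ± 0.214 times with DLX5 (SD, n = 3).

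ABCG2, the breast cancer resistance protein, was near the detection limit. It had 2, 1 and 0 counts in the DLX5 libraries and 0, 0 and 1 in the controls, so no fold is given. ABCC2, the canalicular conjugate exporter, was at 0.641 ± 0.119 against 0.735 ± 0.436 CPM with overlapping groups. ABCC6, whose loss is known to cause ectopic mineralisation, was at 3.61, 3.1 and 3.29 CPM with DLX5 and 3.55, 2.1 and 1.89 CPM in control. The first control library lay inside the DLX5 range, and the gene did not pass (log2 fold change 0.42 ± 0.24, edgeR adjusted p = 0.135), though it passed without control replicate 1 (0.74, adjusted p = 0.0159). Of its near-identical copies, ABCC6P1 took 36, 16 and 24 counts in the DLX5 libraries against 3, 3 and 6 in the controls and rose by 2.61 ± 0.45 (edgeR, adjusted p = 1.74e-05). The copy ABCC6P2 did not rise, with 18 counts with DLX5 and 23 in control, and was too low to test. Reads of the copies cannot be told apart by these counts, so all these values are uncertain. ABCC11 had 11 counts with DLX5 and 3 in control, a ratio of 3.63 with an exact 95% counting interval of 0.958 to 20.3, and LONP2, which shares exon bases with it on the other strand, held 7267 counts over all libraries.

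MYCN itself rose by 2.45 ± 0.11 on the log2 scale, from 4.89 ± 0.488 to 26.6 ± 0.344 CPM (SD, n = 3). MYC fell by 0.43 in the same fit, from 92.3 ± 6.08 to 68.5 ± 0.587 CPM, and so stayed above MYCN. Beside these values the genes studied as MYCN-regulated took different courses, with ABCC1 at 0.01, ABCC4 at 0.31 and ABCC3 at 1.57 (log2 fold change). The part of MYCN in them was not tested.

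Among the 33 tested members the largest rise was that of ABCC9 (ENSG00000069431, chromosome 12, 21797401 to 21942529, minus strand), the sulfonylurea receptor SUR2. SUR2 is not a pump but the regulatory subunit of ATP-sensitive potassium channels in muscle and vessel wall. ABCC9 stood at 18.8, 16.7 and 17.8 CPM in the DLX5 libraries and at 0.536, 0.839 and 0.426 CPM in the controls. The groups did not come near each other, and the log2 fold change was 4.86 ± 0.20, or 29.1-fold (edgeR, adjusted p = 1.54e-17). The controls held only 8, 14 and 7 counts, so the counting error alone is 0.27 on the log2 scale, larger than that standard error. On log2(FPKM + 1) values, which understate changes of low genes, the difference was 1.26 (limma, adjusted p = 4.88e-07). The fibroblast markers moved with ABCC9, from 1205 to 1249 CPM in control to 6295 to 6529 CPM in sum, and fewer or more cells of a type and less or more RNA per cell cannot be told apart in these bulk libraries.

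ABCC8, the sulfonylurea receptor SUR1 of neurons and islet cells, moved the other way at a low level. It was at 4.21, 4.71 and 4.99 CPM with DLX5 and 4.96, 6.71 and 6.52 CPM in control. Control replicate 1 lay within the DLX5 range. Its log2 fold change of -0.39 ± 0.17 passed narrowly (edgeR, adjusted p = 0.0476). The call was lost with DESeq2 (adjusted p = 0.104), without the filter on low counts (0.0668) and with limma on FPKM, at a pseudocount of 1 or 0.1 (0.135 and 0.158), and it was lost without any one of the DLX5 libraries 1, 2 or 3 (adjusted p = 0.166, 0.0724 and 0.0543) or of the control libraries 2 or 3 (0.158 and 0.143). By FPKM the ratio of ABCC9 to ABCC8 was 0.108 ± 0.0333 in control and 4.18 ± 0.561 with DLX5 (SD, n = 3).

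The pore genes of these channels lie next to the receptor genes and moved little. KCNJ8, which encodes Kir6.1 and lies 21819 bases from ABCC9, rose by 0.33 ± 0.11, from 13.8 ± 1.58 to 17.4 ± 0.839 CPM (edgeR, adjusted p = 0.0104). KCNJ11, which encodes Kir6.2 and lies 3166 bases from ABCC8, was at 7.79 ± 1.62 against 6.52 ± 1.08 CPM and did not pass (log2 fold change 0.25 ± 0.17, adjusted p = 0.193). In control the FPKM of KCNJ8 was 117 ± 46.4 times that of ABCC9, and with DLX5 it was 4.59 ± 0.489 times (SD, n = 3).

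**Figure D3:**
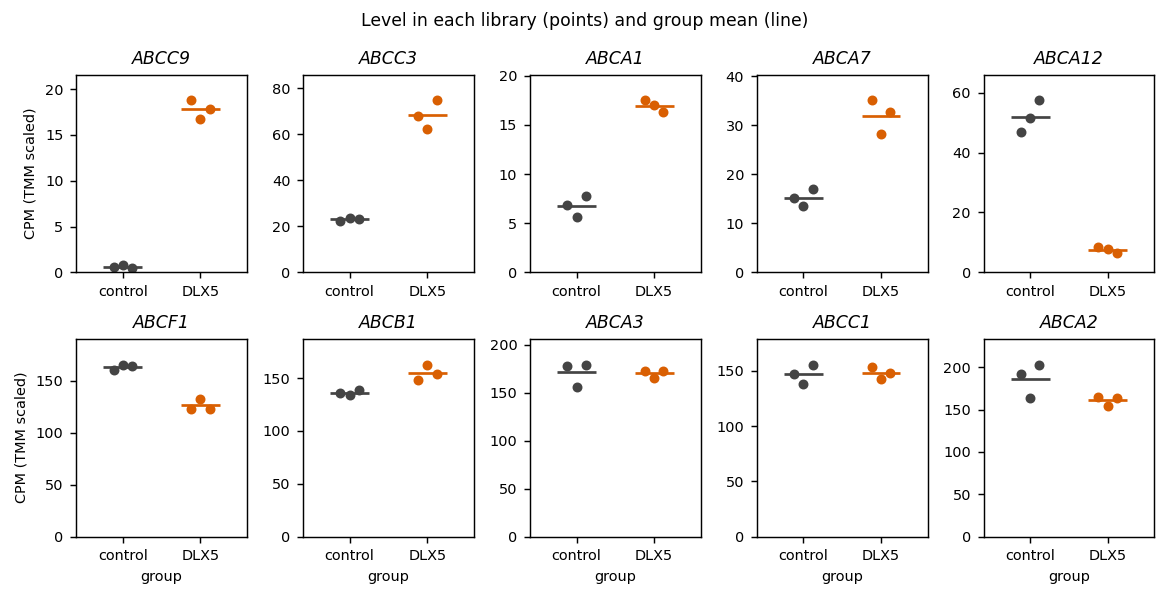
CPM (y axis, from 0) in each control and DLX5 library (x axis) of the 5 ABC genes that changed at least 2-fold (top) and the 5 with the highest mean FPKM (bottom); points are libraries and lines group means. In the top row the groups are apart for every gene, with ABCA12 the one that was lower with DLX5, and in the bottom row ABCA3, ABCC1 and ABCA2 overlap.

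Lipid and bile transporters were tested in 10 cases of 18, with 5 higher and 3 lower, and the same shares of all tested genes (29.8% and 28.8%) apply. ABCA12 (ENSG00000144452, chromosome 2, 214931542 to 215138428, minus strand), which loads glucosylceramides into the lamellar granules of skin, had the largest fall among the tested members. It was at 8.48, 7.94 and 6.33 CPM in the DLX5 libraries and at 46.8, 51.4 and 57.4 CPM in the controls. Every control library lay far above the DLX5 libraries, with a log2 fold change of -2.77 ± 0.11 (edgeR, adjusted p = 6.15e-18), which makes the controls 6.84-fold higher. Among the 12 ABCA genes its share of the summed FPKM was 11.9% ± 1.24 in control and 1.88% ± 0.279 with DLX5. On log2(FPKM + 1) values the difference was -1.85 (limma).

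The exporters of cholesterol and phospholipid to apolipoproteins rose. ABCA1 (ENSG00000165029, chromosome 9, 104781002 to 104928237, minus strand), which starts the formation of high density lipoprotein, was at 17.5, 17 and 16.3 CPM with DLX5 and at 6.83, 5.63 and 7.8 CPM in control. That is a log2 fold change of 1.33 ± 0.13, or 2.51-fold, with no overlap (edgeR, adjusted p = 9.52e-10), and 0.64 on log2(FPKM + 1) values (limma). ABCA7, its close relative that is known as a risk gene of Alzheimer's disease (ENSG00000064687, chromosome 19, 1040101 to 1065572, plus strand), was at 35.1, 28.2 and 32.6 CPM against 15.1, 13.6 and 17.1 CPM. All 3 DLX5 libraries held more ABCA7 than any control, and the log2 fold change was 1.07 ± 0.10, or 2.1-fold (edgeR, adjusted p = 8.95e-10). The neighbour of ABCA7 on 1 side, CNN2, 1032 bases away, rose by 1.63 ± 0.06. The neighbour on the other side, ARHGAP45, 350 bases away, did not pass (log2 fold change -0.09 ± 0.12, edgeR adjusted p = 0.505). ABCG1, which passes cholesterol on to lipoprotein particles that hold ABCA1 lipids, did not follow them. It fell by 0.46 ± 0.12, from 13.4 ± 1.57 to 9.75 ± 0.446 CPM (edgeR, adjusted p = 0.00198), and its brain relative ABCG4 was at 6.55 ± 0.334 against 5.17 ± 0.78 CPM and did not pass (adjusted p = 0.0723).

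ABCA2 and ABCA3 carried most of the ABCA level. ABCA3, the surfactant lipid transporter of lung (ENSG00000167972, chromosome 16, 2275881 to 2340746, minus strand), was at 172, 165 and 173 CPM with DLX5 and 178, 156 and 180 CPM in control. The ABCA3 groups overlapped, with a log2 fold change of -0.01 ± 0.06 (edgeR, adjusted p = 0.925). ABCA2, a lysosomal sterol and sphingolipid transporter that is abundant in nervous tissue (ENSG00000107331, chromosome 9, 137007227 to 137028922, minus strand), was at 165, 155 and 163 CPM against 193, 163 and 203 CPM. Control replicate 2 lay within the DLX5 range. The fall of ABCA2, -0.21 ± 0.07 (edgeR, adjusted p = 0.0103), did not pass without control replicate 3 (-0.15, adjusted p = 0.0929) or with limma on FPKM at either pseudocount, 1 or 0.1 (adjusted p = 0.0622 and 0.0602).

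Of the remaining lipid transporters 3 rose at low levels. ABCA4, the retinoid flippase of photoreceptors, went from 1.01 ± 0.198 to 1.88 ± 0.416 CPM, ABCA5, a lysosomal transporter, from 5.88 ± 0.772 to 8.29 ± 1.77 CPM, and ABCB4, the phosphatidylcholine flippase of bile, from 5.97 ± 1.31 to 8.01 ± 0.687 CPM (SD, n = 3). ABCB4 lies 23197 bases from ABCB1 on the same strand. Their log2 fold changes were 0.88 ± 0.31, 0.50 ± 0.16 and 0.43 ± 0.16, in that order, with edgeR adjusted p of 0.0179, 0.0108 and 0.024. None of these calls was firm. ABCA4 did not pass without DLX5 replicate 1 or 2 or control replicate 1 (adjusted p = 0.081, 0.0584 and 0.0707) or on log2(FPKM + 1) values (0.0673, limma). ABCA5 did not pass without DLX5 replicate 1 or control replicate 3 (adjusted p = 0.129 and 0.0711) or with limma on FPKM at pseudocounts of 1 and 0.1 (0.0824 and 0.0957). ABCB4 did not pass without DLX5 replicate 2 or control replicate 3 (adjusted p = 0.0792 and 0.178), with library totals and no scaling factors (0.0544), or on the same FPKM scales (0.0702 and 0.0901, limma).

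ABCA5 sits at the end of a row of related genes on chromosome 17 that holds ABCA8, ABCA9, ABCA6 and ABCA10 on the same strand. These 4 neighbours were too low to be tested. ABCA8 had 8, 9 and 8 counts in the DLX5 libraries and 0 in every control. With 3 counts over the control group as the floor, its DLX5 level was 8.25-fold that floor. ABCA10 had 0, 5 and 4 counts against 0, or 2.97-fold the same floor, but it shares exon bases with the more abundant ABCA5. ABCA6 had 1, 0 and 3 counts against 0, or 1.32-fold that floor, and ABCA9 had no count in any library. A count of 0 over a group allows up to 0.0618 CPM with DLX5 and 0.0625 CPM in control. These CPM limits cover counting error only. The folds over the floor take the DLX5 counts as exact, so they are not lower limits. Without the low-count filter ABCA8 passed (edgeR, adjusted p = 3.01e-05), as did ABCA10 (0.0349), while ABCA6 did not (0.218). The rise of the fibroblast markers stands beside these values as it does beside ABCC9.

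The sterol pair ABCG5 and ABCG8, which return plant sterols to the gut and bile, overlap at their starts on opposite strands and were near the limit too. ABCG5 had 2 counts with DLX5 and 13 in control, a ratio of 0.152 with an exact 95% counting interval of 0.0167 to 0.672. ABCG8 had 2 against 11 counts, a ratio of 0.18 (0.0194 to 0.824). Both were highest in control replicate 2, which held 9 and 7 of these counts. They share 137 exon bases on opposite strands, and with no filter neither passed (edgeR, adjusted p = 0.0921 and 0.17). The remaining members that could not be tested had at most 2 counts over all libraries: ABCA13, ABCB11, the bile salt export pump, ABCC12, and ABCB5, which had none.

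The RefSeq promoter windows of the members with the largest changes show how unlike these annotated start regions are, and are printed for that reason. RefSeq promoter windows were at hand for 35 of the 45 members, 53 windows in all, and none was used here for ABCA8, ABCC1, ABCC3 and ABCC8, among others. The sequences come from RefSeq on GRCh38.p14, run 5′ to 3′ on the strand of the gene, and cover up to 250 bases before the annotated start, without bases that lie in an exon of GENCODE 29. The ABCC9 window lies inside the gene span given above. The first 50 bases after its start were held by 0 of 7 GENCODE transcripts. For the first ABCA12 window printed it was 0 of 3. It was 1 of 3 for the other ABCA12 window, 1 of 4 for ABCA1 and 3 of 19 for ABCA7. Capitals mark matches on either strand to CACGTG (the E-box bound by MYC family factors), GGGCGG (the GC box), TATAAA, and TAATTA or TAATTG (cores bound by many homeodomains).
ABCC9, chr12:21941427-21941676, minus strand: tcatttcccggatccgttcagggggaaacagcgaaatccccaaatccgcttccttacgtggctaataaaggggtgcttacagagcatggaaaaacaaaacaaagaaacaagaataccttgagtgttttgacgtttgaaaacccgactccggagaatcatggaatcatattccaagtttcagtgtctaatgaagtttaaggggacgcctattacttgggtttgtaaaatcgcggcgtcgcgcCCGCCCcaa
ABCA1, chr9:104928238-104928405, minus strand: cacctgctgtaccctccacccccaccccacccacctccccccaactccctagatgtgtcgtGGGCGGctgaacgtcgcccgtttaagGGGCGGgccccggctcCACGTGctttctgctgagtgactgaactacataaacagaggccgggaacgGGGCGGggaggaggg
ABCA7, chr19:1039857-1040100, plus strand: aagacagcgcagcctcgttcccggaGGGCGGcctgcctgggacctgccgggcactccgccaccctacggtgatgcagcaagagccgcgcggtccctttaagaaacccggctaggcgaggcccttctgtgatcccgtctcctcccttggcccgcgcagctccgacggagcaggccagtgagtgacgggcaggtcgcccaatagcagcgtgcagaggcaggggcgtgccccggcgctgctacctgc
ABCA12, chr2:215138627-215138876, minus strand: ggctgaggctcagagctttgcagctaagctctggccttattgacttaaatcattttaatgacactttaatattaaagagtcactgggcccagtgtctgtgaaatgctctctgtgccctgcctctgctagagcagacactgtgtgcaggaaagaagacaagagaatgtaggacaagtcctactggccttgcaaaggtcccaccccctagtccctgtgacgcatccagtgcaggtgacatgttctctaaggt
ABCA12, chr2:215032087-215032336, minus strand: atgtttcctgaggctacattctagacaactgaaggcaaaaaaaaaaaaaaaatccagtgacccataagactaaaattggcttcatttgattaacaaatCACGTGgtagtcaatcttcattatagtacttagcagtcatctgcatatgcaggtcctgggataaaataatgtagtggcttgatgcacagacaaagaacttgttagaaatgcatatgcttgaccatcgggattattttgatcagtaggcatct

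The 3 printed genes that rose have windows rich in CpG. The ratio of observed to expected CpG over the 250 bases was 1.13 for ABCC9, 0.682 for ABCA1 and 0.807 for ABCA7, and each window holds the GC box, 3 of them in ABCA1. ABCA1 also holds TATAAA 31 to 26 bases before the start, among the 82 exon bases that were not printed. The windows of ABCA12 have ratios of 0.0672 and 0.242 and no GC box, and the E-box occurs in ABCA1 and in the downstream window of ABCA12. Over the family the GC box occurred in 22 of the 34 windows of tested members (64.7%), in 3 of the 19 windows of members too low to test (15.8%) and in 42.6% of all 35116 promoters of the table. The median CpG ratio was 0.779 in windows of tested members, 0.208 in those of untested members and 0.558 over all promoters. By direction, it was 0.794 in the 12 windows of higher members and 0.813 in the 12 windows of lower members. The GC box was in 8 (66.7%) and 7 (58.3%) of these windows, so the contrast between the printed genes did not hold over the family. CACGTG was found in 6 of 34 and 3 of 19 windows against 6.34% of all promoters, and TATAAA in 4 and 2 against 10.7%. TAATTG was in 0 of the 34 windows of tested members and in 1 of the 19 others (6.7% of all promoters), and TAATTA in 0 and 2 (4.35%). Windows of 1 gene can overlap, the start used in these cells was not measured, and a match is a description only. The ABCC9 window and the upstream window of ABCA12 rest on RefSeq starts that the GENCODE transcripts did not hold.

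Mitochondrial transporters of the ABCB subfamily, which work as dimers in the inner membrane or, for ABCB6, mostly in other membranes, moved in both directions. ABCB8, part of a mitochondrial potassium channel complex, rose by 0.33 ± 0.06, from 70.0 ± 1.97 to 88.0 ± 2.22 CPM (edgeR, adjusted p = 6.71e-05). ABCB10, which is needed for haem synthesis, fell by 0.40, from 36.7 ± 2.39 to 27.8 ± 2.42 CPM (edgeR, adjusted p = 0.000216). In both genes the libraries of the groups were apart. ABCB10 has processed pseudogenes with few counts. ABCB6, a porphyrin transporter, was at 3.48 ± 0.489 against 4.78 ± 0.684 CPM, and its fall of 0.46 (edgeR, adjusted p = 0.0375) was lost with DESeq2 (0.0856), on log2(FPKM + 0.1) values (0.0646, limma), and without DLX5 replicate 2 or 3 (adjusted p = 0.0862 and 0.13) or control replicate 2 or 3 (0.151 and 0.0753). ABCB6 shares 54.7% of its exon bases with AC068946.2 on the same strand, which held 3.75% as many counts. How reads in the shared bases were counted is not known, so the ABCB6 level is uncertain.

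Peroxisomal transporters bring fatty acids into peroxisomes for shortening. ABCD2, which takes very long chain and polyunsaturated acids, was lower in every DLX5 library, at 11.6, 13.2 and 11.2 CPM against 20.8, 24.6 and 23.5 CPM (log2 fold change -0.94 ± 0.10, edgeR adjusted p = 1.52e-08). ABCD3, which carries branched-chain and dicarboxylic acids, fell by 0.30, from 73.5 ± 4.1 to 59.8 ± 4.3 CPM (edgeR, adjusted p = 0.00075).

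The lysosomal members are ABCD4, which works with LMBRD1 in the release of vitamin B12, and the peptide transporter ABCB9. ABCD4 rose by 0.39 ± 0.08, from 42.1 ± 1.52 to 55.3 ± 4.76 CPM (edgeR, adjusted p = 7.42e-05), and LMBRD1 rose by 0.39 ± 0.10, from 15.8 ± 0.688 to 20.8 ± 2.52 CPM (adjusted p = 0.00177). MMACHC, listed with LMBRD1 among the ABCD partners, did not pass (-0.22 ± 0.11, edgeR adjusted p = 0.102). ABCD4 shares 7.12% of its exon bases with AC005519.1 on the same strand, which held 5.39% as many counts and rose by 0.70. ABCB9 was at 9.61 ± 0.713 against 9.06 ± 1.25 CPM and did not pass, and 2 genes on the other strand, ARL6IP4 and OGFOD2, held 11.9% and 11.2% as many counts.

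Of the 4 soluble ATPases that act on ribosomes 3 fell and 0 rose, where 28.8% of all tested genes fell and 29.8% rose. ABCF1, a translation initiation factor partner and the member with the highest FPKM in both groups (ENSG00000204574, chromosome 6, 30571376 to 30597179, plus strand), was at 123, 133 and 123 CPM in the DLX5 libraries and 161, 166 and 164 CPM in the controls. No DLX5 library reached a control, and the log2 fold change was -0.37 ± 0.06 (edgeR, adjusted p = 5.63e-06). ABCE1, which splits ribosomes after termination, fell by 0.33, from 94.7 ± 8.15 to 75.2 ± 4.87 CPM, and ABCF2 by a similar amount, from 35.0 ± 1.77 to 27.6 ± 2.07 CPM (edgeR, adjusted p = 0.000221 and 0.000951). ABCF3 overlapped between the groups, at 36.1 ± 2.41 against 35.0 ± 2.38 CPM. ABCF2 shares 45.8% of its exon bases with AC021097.2 on the same strand, which had 0 counts, so the ABCF2 level is uncertain too. ABCE1 shares exon bases with OTUD4 on the other strand, which held 74.4% as many counts and rose by 0.21, so reads of the 2 genes cannot be told apart there.

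By level per length, the order at the top of the family was the same in both groups. ABCF1 led with 35.9 ± 0.538 FPKM in control and 27.7 ± 1.37 with DLX5, followed by ABCB1 with 23.3 ± 0.427 and 26.5 ± 1.34, ABCA3 with 21.8 ± 1.7 and 21.6 ± 0.469, ABCC1 with 19.2 ± 1.2 and 19.4 ± 0.641, and ABCA2 with 16.1 ± 1.8 and 13.9 ± 0.42 (SD, n = 3). With DLX5, ABCF1 and ABCB1 lay within 1 SD of each other, and in control so did ABCB1 and ABCA3. Lower down ABCC9 moved from rank 34 of 45 to rank 22, ABCC3 from 20 to 11 and ABCA12 from 15 to 26.

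Genes of the pathways that these transporters serve moved in both directions. Among 15 genes of sterol transport and the liver X receptors, which induce ABCA1 and ABCG1, 8 rose and 4 fell, while 3 did not pass, and their median log2 fold change was 0.37. SOAT1, which esterifies cholesterol, rose by 0.93 ± 0.07 and the lysosomal sterol carrier NPC2 by 0.77 ± 0.08, while SCARB1, a lipoprotein receptor, fell by 0.57 (log2 fold change ± SE, edgeR). Of 15 glutathione and conjugation genes, which make substrates for ABCC pumps, 4 rose and 5 fell, while 6 did not pass (median 0.00). NFE2L2, the factor that induces many of them, rose by 0.76 ± 0.08, its inhibitor KEAP1 fell by 0.42, and the transferases GSTK1 and GSTP1 went to 0.36 and -0.30.

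The lists tied to organelles and ribosomes were as mixed. Of 13 genes of peroxisomal oxidation and ABCD partners 5 rose and 4 fell (median 0.11), with ACSL1, which activates fatty acids, lower by a log2 fold change of -0.44 and ACOX3 and SCP2 higher by 0.37 and 0.32. Of 17 genes of iron-sulfur and haem synthesis 5 rose and 6 fell (median -0.03). ALAD and ALAS1, the first enzymes of haem synthesis, rose by 0.57 ± 0.09 and 0.47 ± 0.07, and so did the iron importer SLC25A37 and the sulfur donor NFS1, by 0.48 and 0.46. In the list labelled ribosome recycling and rescue, 12 genes in all, 3 rose and 3 fell (median -0.05). That list also holds genes of translation initiation, its control and termination, among them EIF2AK4, EIF2S3, EIF2S1 and ETF1. Its counts therefore do not describe recycling and rescue alone. Among the recycling and rescue genes NEMF rose by 0.26 ± 0.08 (edgeR, adjusted p = 0.00989), while PELO, HBS1L, EIF3J and LTN1 did not pass. The kinase gene EIF2AK4 rose by 0.66 ± 0.06 and EIF2S3 by 0.40, while EIF2S1 and the release factor ETF1 fell by 0.49 and 0.41. Over all tested genes 29.8% were higher and 28.8% lower, and the median was 0.00.

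**Figure D4:**
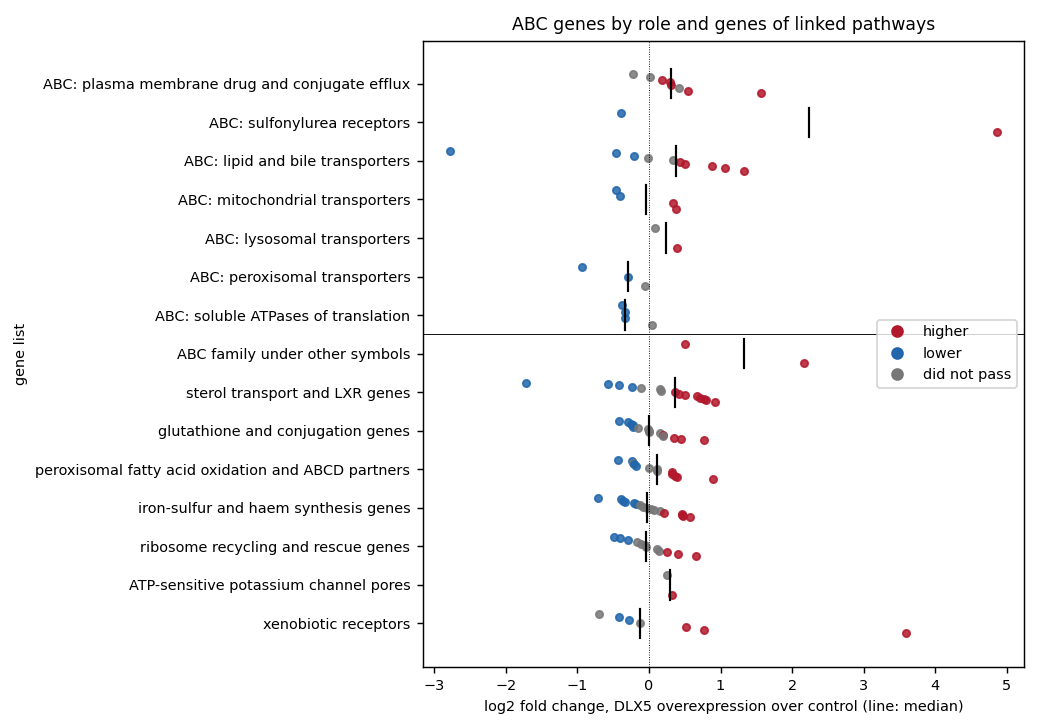
Log2 fold change (x axis) of each tested gene in the ABC roles (above the line) and in the linked pathway lists (below), with black lines for medians and colours for the call at an adjusted p under 0.05. Efflux genes lie at or above 0 except ABCC2, 3 of the 4 ribosomal ATPases lie below it, and the pathway lists spread to both sides.

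The list labelled xenobiotic receptors holds 9 genes, among them ARNT and NFE2L2, which are not such receptors themselves. Of the 9 genes 7 could be tested, and 3 rose and 2 fell (median -0.12), beside 29.8% higher and 28.8% lower over all tested genes. PPARG, a lipid-activated nuclear receptor, rose by 3.59 ± 0.26, from 0.5 ± 0.121 to 6.12 ± 0.698 CPM (edgeR, adjusted p = 5.87e-12), ARNT rose by 0.51 ± 0.07 and RXRA fell by 0.41. NFE2L2 and RXRA stand in 2 of these lists. AHR had no count in any library and NR1I2 was too low to test. Of the relatives outside the symbol rule, TAP1, which with TAP2 pumps peptides into the endoplasmic reticulum for class I antigen presentation, rose by 2.17 ± 0.09, from 14.1 ± 2.19 to 63.5 ± 2.55 CPM (edgeR, adjusted p = 5.3e-17). TAP2 rose by 0.50 ± 0.15, from 5.99 ± 0.758 to 8.44 ± 0.629 CPM (adjusted p = 0.00499), and CFTR had no count.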

How the data were processed

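The labels' protocols name a NEBNext Ultra kit for the libraries. The deposited counts are whole and not normalized. The submitters' processing notes list HISAT2 2.0.5 and featureCounts 1.5.0-p3, whose settings, strand included, are not given in the sources used here. Those notes name hg19, but all 58735 genes have the starts and ends of GENCODE 29, so coordinates are GRCh38. FPKM, as deposited by the authors, equals the counts over gene length and 0.968 to 1.03 times each library's total, so it is not independent of the counts.

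Counts were tested with edgeR 4.0.16 in R 4.3.3 (filterByExpr, TMM, two-sided quasi-likelihood test, Benjamini-Hochberg over 17269 genes, no covariate). The standard error is the log2 fold change over the square root of F. Between libraries of 1 group, chi-square per degree of freedom was 2.23 to 5.07, so none is treated as a copy. With 3 against 3 libraries an exact permutation test can reach only p = 0.1, and the model's p-values are given instead. The test was also run on simulated counts, drawn with the same dispersion for every gene and with far fewer changed genes than were called here. That run therefore does not show how the test behaves in the present setting. Alternatives were DESeq2 1.42.0, limma 3.58.1 on log2(FPKM + 1) and log2(FPKM + 0.1), RLE factors, library totals, other filters, a replicate block and each library left out. Per-library values are given for members called with at least a 2-fold change and no overlap, the 5 with the highest FPKM, ABCB1, ABCC1 and ABCG2, and others where they show the spread; from each pathway list up to 4 genes with the smallest adjusted p are named. Members, lists and roles were chosen with earlier results of these data known. LMBRD1, MMACHC, TAP2, the pseudogenes, the neighbours of ABCA7 and the genes sharing exon bases were named for their link to a member. The recycling and rescue genes were named to set them apart in their list. Figures were drawn with matplotlib 3.10.9. A few genes are in the counts, sums and medians but are not reported here one by one.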

Additional observations from a re-analysis of the deposited data

How the results depend on the processing

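Of the 33 tested members 19 kept their direction and their side of the threshold under all 14 alternatives. The count of higher members ran from 11 to 16 and that of lower members from 8 to 11. The replicate block (14 higher, 11 lower) changed no call. Deviations of libraries with the same replicate number correlated at 0.02, 0.12 and -0.06. So no strong shared effect was seen, but this cannot show whether the libraries were prepared in pairs. The median log2 fold change of the members was 0.29 with no filter on low counts. With the filter still off, it was 0.19 over 39 members when a group at 0 counts was set at the floor of 3. With 1 library left out the median was 0.025 to 0.19, the highest without control replicate 2. Members that did not pass changed sign around 0: with library totals and no scaling factors ABCC1 was at -0.057 and ABCF3 at -0.020, a scaling that moved the median of all genes by -0.07. With 1 library left out ABCA3 ran from -0.076 to 0.025, ABCB9 from -0.0014 to 0.19, ABCC1 from -0.038 to 0.052, ABCC2 from -0.55 to 0.32 and ABCF3 from -0.0035 to 0.10. ABCC2 could not be tested with 1 CPM in 3 libraries. None of the 12 untested members had over 9 counts in a library.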
